A study of Rattus norvegicus with 2 samples.

Results

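The circular RNAs (circRNAs) of Gigyf2 were examined in rat lung after lipopolysaccharide (LPS) exposure. The deposited table holds 4734 circRNAs, each given by the position of its back-splice junction, and 8 of these rows name Gigyf2 among their host genes. The gene was chosen on the level of its circRNAs, which was the highest of any protein-coding host in both libraries (names of small RNA families, which stand beside many hosts, are left out of this rank), so its levels and its rank are given as a description and carry no test. Lung came from SD rats that received PBS (Sham) or LPS at 2 mg/kg (LPS) by intratracheal spray and were killed 24 h later, to model acute lung injury. The study assigned 12 rats to these groups. The table holds 1 Sham library and 1 LPS library, and whether the RNA of several rats was pooled is not given in the sources used here. With 1 library per group there are no replicates, and no spread between animals can be given.

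GIGYF2 is a GYF-domain protein that was identified as a partner of the adaptor GRB10 in insulin-like growth factor signalling. It binds the cap-binding protein 4EHP, encoded by Eif4e2, and the complex represses translation of selected mRNAs, including those on which ribosomes have collided and been sensed by ZNF598. A circRNA arises when a downstream splice donor is joined to an upstream splice acceptor. The closed loop has no free ends and resists the exonuclease RNase R, which the sample labels describe as the enrichment step.

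A level is the number of reads across a back-splice junction scaled to a total of 1000000 per library (CPM), with no length term, since each circRNA is counted at a single point. The Sham library held 38112 junction reads, so 1 read was worth 26.2 CPM. The LPS library held 52505 junction reads, at 19.0 CPM per read. A junction absent from a library has the value 0.001. No junction is listed at 1 read, so this fill-in is taken here to cover 0 or 1 read. Given 1 read, the one-sided 95% Poisson upper limit on the expected count is 4.74 reads. This limit is 124 CPM in Sham and 90.4 CPM in LPS. Intervals are 95% Wilson intervals and cover counting error only, since PCR reads lacking molecular identifiers are not separate molecules. Because levels are shares of the captured junction reads of bulk lung, fewer cells of a type and less RNA per cell cannot be told apart.

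A single junction carried most of the Gigyf2 signal. This circRNA joins 94481167 back to 94463647 on chromosome 9 in the deposited coordinates (the submitters' processing notes name the genome build rn6, without saying what it was used for), a genomic span of 17521 bases that includes introns. In Sham it stood at 61477 CPM (interval 59109 to 63933), from 2343 reads. In LPS it stood at 27274 CPM (25915 to 28702), from 1432 reads. The intervals of the libraries did not overlap, and the LPS level was the lower, 0.44 times that of Sham. The other 7 junctions together had 95 Sham reads, or 2493 CPM (2040 to 3046), and 112 LPS reads, or 2133 CPM (1773 to 2566), and these intervals did overlap.

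**Figure D1:**
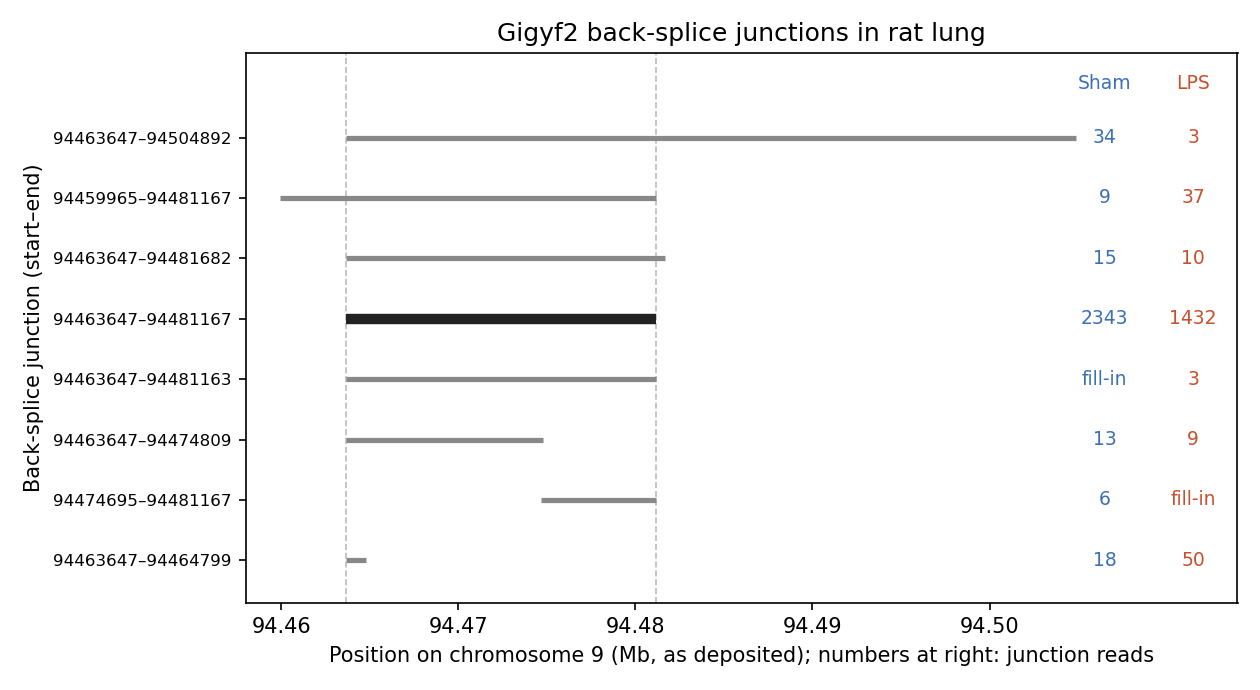
The 8 Gigyf2 back-splice junctions are drawn to scale on chromosome 9 (Mb, as deposited), ordered by span, with the reads of the Sham and the LPS library at the right and dashed lines at the ends of the most-read junction (thick bar). Of the 8 junctions, 6 start at 94463647 and 3 end at 94481167.

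The share of this junction in the summed Gigyf2 reads was 96.1% in Sham (interval 95.3 to 96.8) and 92.7% in LPS (91.3 to 93.9). The difference was 3.36 percentage points (interval 1.90 to 4.92). Part of it lay in the 2 rows that name small RNA families beside Gigyf2. Without those rows the shares were 97.1% and 95.7%, and the difference was 1.40 points (0.21 to 2.70). The next most-read Gigyf2 junction was a different one in each library. In Sham it was the junction ending at 94504892, with 34 reads, 68.9 times fewer than the leading junction. In LPS it was the junction ending at 94464799, with 50 reads, 28.6 times fewer.

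The junctions shared ends rather than lying apart. The start at 94463647 served 6 of the 8 junctions, and these held 99.4% of the Gigyf2 reads in Sham and 97.6% in LPS. The end at 94481167 served 3 junctions, which held 96.7% and 95.1%. No Gigyf2 junction was free of both ends. Of the 7 lesser junctions, 4 lay wholly within the span of the leading one and 3 reached beyond it. Among the 16 other protein-coding hosts with at least 8 junctions, the most used end served a median of 33.3% of a host's junctions (range 11.1 to 54.5), against 75% for Gigyf2. This comparison is a description across host genes, which are not replicates.

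The junctions that reached beyond the leading span were 15 to 34 Sham reads deep where they shared its start and 9 where they shared its end. The longest ran from 94463647 to 94504892, a span of 41246 bases, 23725 bases past the leading end. It had 34 reads in Sham, 892 CPM (639 to 1246), and 3 reads in LPS, 57.1 CPM (19.4 to 168). The Sham level was 15.6 times the LPS level, and the intervals were far apart. The junction from 94463647 to 94481682, which ends 515 bases past the leading end, had 15 Sham reads, 394 CPM (239 to 649), and 10 LPS reads, 190 CPM (103 to 351). Here the intervals overlapped.

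The junction from 94459965 to 94481167 kept the leading end and started 3682 bases earlier. It went the other way, with 9 reads in Sham, 236 CPM (124 to 449), and 37 reads in LPS, 705 CPM (511 to 971). The LPS level was 2.98 times the Sham level, and the intervals did not overlap. It is also 1 of the 2 rows that carry small RNA family names, so its assignment to Gigyf2 rests on its coordinates and the host column together.

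Within the leading span, the shortest junction ran from 94463647 to 94464799, 1153 bases. It had 18 Sham reads, 472 CPM (299 to 746), and 50 LPS reads, 952 CPM (722 to 1255). The LPS level was 2.02 times the Sham level, with intervals that overlapped at their edges. A pair of inner junctions covered the span in 2 pieces. The piece from 94463647 to 94474809 had 13 reads in Sham, 341 CPM (199 to 584), and 9 in LPS, 171 CPM (90.2 to 326). The piece from 94474695 to 94481167 had 6 reads in Sham, 157 CPM (72.2 to 343), and was at the fill-in in LPS. These pieces overlap by 115 bases, and each uses 1 end of the leading junction. The remaining junction, from 94463647 to 94481163, ends 4 bases before the leading one, was at the fill-in in Sham and had 3 LPS reads, 57.1 CPM (19.4 to 168). Added to the leading junction, a choice made after seeing the data, it left the log2 difference of that junction at -1.17.

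**Figure D2:**
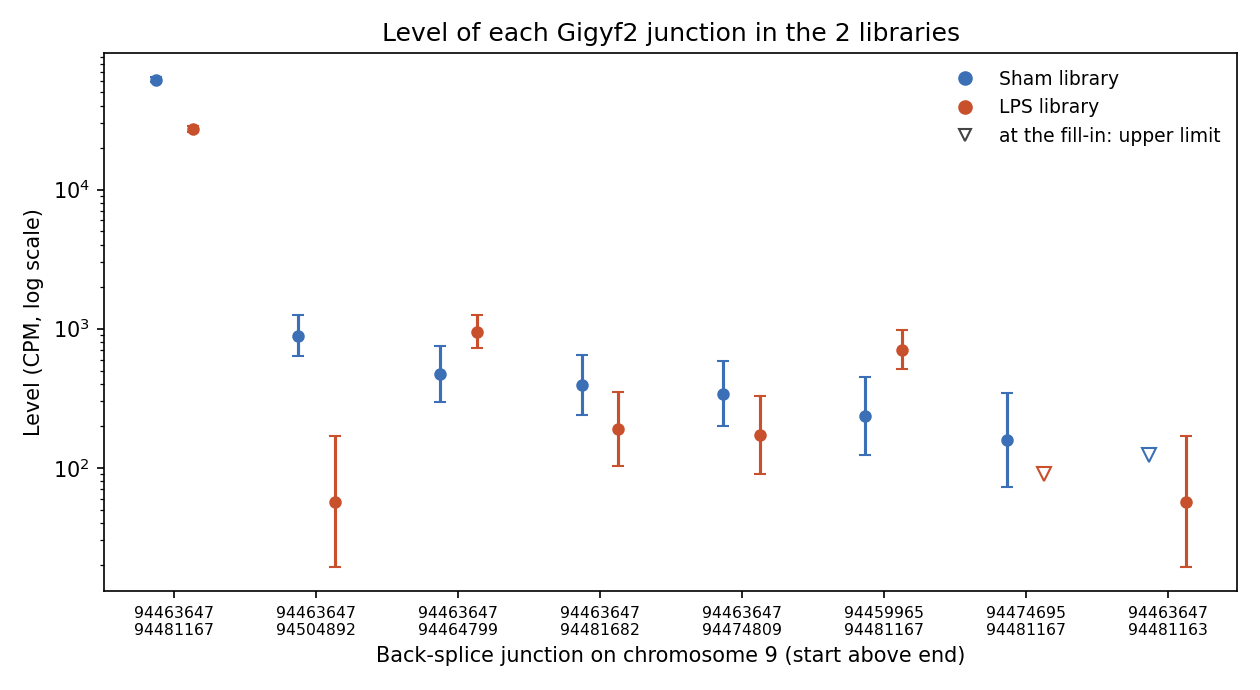
Levels of the 8 Gigyf2 junctions (CPM, log axis) in the Sham library (blue) and the LPS library (orange), with 95% Wilson counting intervals as bars and open triangles for the upper limit of a value at the fill-in. The leading junction lies at 61477 CPM in Sham and 27274 in LPS, and the others lie at 952 CPM or less.

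To ask how the junctions differed between LPS and Sham, differences were taken on a log2 scale after adding 0.5 reads to each value. The log2 difference of the leading junction was -1.17 (counting interval -1.27 to -1.08). That of the summed Gigyf2 signal was -1.12 (-1.21 to -1.03), or 63969 CPM in Sham and 29407 in LPS. For the 7 other junctions together it was -0.23 (-0.62 to 0.17), and -0.59 for those of them in rows that name Gigyf2 alone. Of the 8 junctions, 2 were at least 2-fold higher in LPS and 4 at least 2-fold lower. Of all 4734 circRNAs, 35.7% were higher by this rule and 43.3% lower, 79.0% in either direction. Among the 6 Gigyf2 junctions with at least 10 reads over both libraries, 1 was higher and 3 were lower, where 29.1% and 29.6% of all circRNAs of that depth were (58.7% in either direction). The direction of single junctions was therefore mixed, and nothing about Gigyf2 is read from these counts. The median over the 8 junctions was -1.0, against -0.46 over all circRNAs. The latter is the value of any circRNA with equal reads in both libraries. Among the 142 circRNAs listed in both libraries with at least 100 reads over both, the median was 0.32.

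The threshold ran between closely placed values. Just inside it were the junction ending at 94481682, at -1.02, and the leading junction. Just outside were the junction ending at 94464799, at 0.99, and that ending at 94474809, at -0.97. The calls of the junction starting at 94474695 and of that ending at 94481163 each rest on the fill-in of 1 library.

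The scale between the libraries matters for these values. The median of ratios over the 1757 circRNAs listed in both libraries moves every log2 difference by 0.46 upwards, and that over the 323 of them with at least 50 reads moves it by 0.44 downwards (the shifts from the library totals are -0.46 and 0.44). The first shift equals the log2 difference of a circRNA with equal reads in both libraries. That scale therefore compares the reads with no correction for depth. On it the leading junction was at -0.71, short of 2-fold, and the other junctions together were at 0.24, a change of sign. On the second scale they were at -1.62 and -0.67. The junction starting at 94459965 was between 1.07 and 1.98 and the longest junction between -4.21 and -3.30 on the scales and pseudocounts tried.

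The leading junction alone was 6.15% of all junction reads in Sham and 2.73% in LPS. Leaving it out of both totals moved the scale between the libraries by 0.05 in log2. The circRNA with the next highest Sham level, from Cdyl (chromosome 17, 29730437 to 29731094), was 4.49 times lower than the Gigyf2 junction there. In LPS the next was from Arl15 (chromosome 2, 45801786 to 45813991), 1.51 times lower. The gap between Gigyf2 and the rest was thus narrower in the LPS library.

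**Figure D3:**
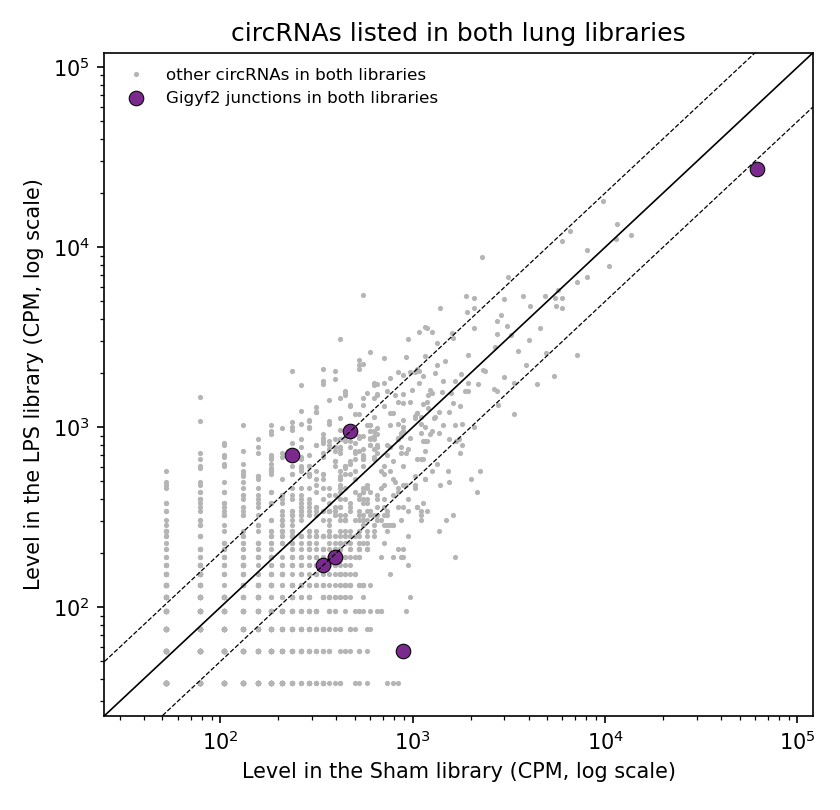
Each point is a circRNA listed in both libraries, by its level in Sham (x, CPM, log axis) and in LPS (y, CPM, log axis), with the 6 Gigyf2 junctions listed in both in purple, 1751 other circRNAs in grey, the line of equal levels and dashed lines at 2-fold. The leading Gigyf2 junction lies apart at the right, at 61477 CPM in Sham, just below the lower dashed line.

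Among the 142 circRNAs listed in both libraries with at least 100 reads over both, the median log2 difference was 0.32 (quartiles -0.25 and 1.18), and 8 lay below the leading Gigyf2 junction. Of the 20 circRNAs with the most reads, Gigyf2 was the 1 that was at least 2-fold lower in LPS, 2 were at least 2-fold higher, and 17 lay within 2-fold. Their log2 differences ran from the -1.17 of Gigyf2 to the 1.95 of a Med13l circRNA. Of all 146 circRNAs with at least 100 reads over both, now with those at the fill-in in 1 library, 9.59% were at least 2-fold lower. In the same set 32.9% were at least 2-fold higher (42.5% in either direction).

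The circRNAs nearest to the leading junction, by Euclidean distance between their log2 levels in the 2 libraries, came from Cdyl, Ssbp2, Arl15, Gtf2i and Tmeff1. CDYL is a chromodomain protein of transcriptional repression, SSBP2 a single-stranded DNA-binding protein and GTF2I a general transcription factor. Their distances ran from 2.48 for Cdyl to 3.11 for Tmeff1, so none lay close, and with 2 libraries this likeness is mainly likeness of level. By summed host levels the same 5 genes were nearest, with Gtf2i first at 1.87. In Sham, Gtf2i had 18446 CPM (17143 to 19846), 3.47 times below Gigyf2. Its LPS level was 20341 CPM (19168 to 21584), 1.45 times below.

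A leading junction was common among these abundant hosts. The most-read junction held 96.1% of the Cdyl reads in Sham (94.2 to 97.5) and 98.2% in LPS (96.9 to 99.0). For Arl15 the shares were 95.4% (92.8 to 97.1) and 96.9% (95.7 to 97.8), and for Tmeff1 95.9% (93.6 to 97.4) and 97.9% (96.0 to 98.9). For Ssbp2 they were 89.5% (86.5 to 92.0) and 96.4% (94.8 to 97.6). The intervals of the libraries overlapped for Cdyl, Arl15 and Tmeff1. Overlap alone does not show equal shares, and no interval of the difference was taken for these hosts. The intervals did not overlap for Ssbp2, whose share was higher in LPS, nor for Gigyf2 over all its rows, whose share was lower. Over the rows naming Gigyf2 alone its intervals did overlap, at a difference of 1.40 points (0.21 to 2.70). By overlap alone, the contrast of Gigyf2 with Cdyl, Arl15 and Tmeff1 is thus seen only with the rows that carry small RNA names. The directions stayed opposite without those rows, with the share lower in LPS for Gigyf2 and higher in LPS for Cdyl, Arl15 and Tmeff1. Cdyl, Arl15, Tmeff1 and Ssbp2 had 4 to 6 junctions each, against 8 for Gigyf2 and 15 for Gtf2i.

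Hosts with as many junctions as Gigyf2 spread their reads more. Among the 16 other protein-coding hosts with at least 8 junctions, the most-read junction held a median of 42.8% of a host's reads in Sham. It held 79.8% of the Acbd6 reads and 61.5% of the Gtf2i reads, against 96.1% for Gigyf2. In LPS the highest share among the 15 of them with at least 20 reads in each library was 84.2%, for Acbd6, against 92.7% for Gigyf2. No test was made of these differences, since each library gives 1 value per gene. Gigyf2 was also chosen on a level that its leading junction carries. Without that junction it ranked 46 in Sham and 70 in LPS among protein-coding hosts. A high share therefore goes with the choice of the gene and is given as a description.

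Of 54 partners of GIGYF2 and genes of translational repression, mRNA decay and ribosome quality control, 20 appear as hosts. The name Dcp2 is spread over 28.6 Mb of chromosome 18 in its 13 rows, which a single gene does not span, so its 138 Sham and 276 LPS reads are not taken as those of the decapping enzyme. This was decided after seeing the data. With Dcp2 the list has 59 junctions, 17 higher (28.8%) and 27 lower (45.8%). The other 19 genes gave 46 junctions, 14 at least 2-fold higher in LPS (30.4%) and 21 lower (45.7%), near the 35.7% and 43.3% over all circRNAs. Their median log2 difference was -0.62. Summed, they had 12778 CPM in Sham and 9466 in LPS, so Gigyf2 alone had 5.01 and 3.11 times their total.

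Among the 5 genes of this list with the most reads, besides Dcp2, were Pan3, Cnot6l, Eif4g3 and Cnot2. Pan3, a subunit of the PAN2-PAN3 deadenylase, had 103 Sham reads, 2703 CPM (2229 to 3276), and 71 LPS reads, 1352 CPM (1072 to 1705). Cnot6l, a deadenylase of the CCR4-NOT complex, had 69 and 103 reads, 1810 CPM (1431 to 2290) and 1962 CPM (1618 to 2378). The Pan3 intervals did not overlap and those of Cnot6l did. Eif4g3, a scaffold of cap-dependent initiation, had 77 and 62 reads, 2020 CPM (1617 to 2524) and 1181 CPM (921 to 1513). Cnot2, a CCR4-NOT scaffold subunit, had 30 and 63 reads, 787 CPM (551 to 1123) and 1200 CPM (938 to 1535).

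Gigyf1, the paralogue of Gigyf2, was named after its values were seen. Its 4 junctions had 50 reads in Sham, 1312 CPM (995 to 1729), and 21 in LPS, 400 CPM (262 to 611), and the intervals did not overlap. Its junction with the most Sham reads (chromosome 12, 22238126 to 22238269) had 29 there and was at the fill-in in LPS, while its longest (22237823 to 22238433) had 18 reads in each library. Grb10, which gave GIGYF2 its name, had 1 junction with 5 and 4 reads. Eif4e2 and Zfp598 (ZNF598) are not among the hosts, which at this depth limits only circRNAs above the fill-in and says nothing of their mRNAs.

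The tissue label was checked against lung marker genes by host name. The alveolar type 1 list had 1 of 5 genes listed, Rtkn2 with 53 Sham and 112 LPS reads, and the endothelial list 3 of 6, led by Vwf with 58 and 56 (list sums 1994 and 1181 CPM). The other endothelial hosts went opposite ways, Tek with 18 and 2 reads and Ptprb at the fill-in in Sham with 4 LPS reads, and Pecam1 and Cdh5 were not listed. The fibroblast and matrix list had 4 of 6, at 10810 CPM in Sham and 5085 in LPS. Within it Eln had 331 and 206 reads and Col3a1 70 and 2, while Npnt went the other way with 11 and 57, and Pdgfra was at the fill-in in Sham with 2 LPS reads. The alveolar type 2 list had 3 of 7, and its total was 7 reads in Sham and 3 in LPS (184 and 57.1 CPM), too few to tell the libraries apart. Sftpc (5 reads) and Sftpd (2 reads) were listed in Sham alone and Abca3 (3 reads) in LPS alone, while Sftpb and Sftpa1 were not listed. None of the 5 ciliated markers was listed. The macrophage list had 2 of 5, led by Mrc1, and its total was 2 reads in Sham and 7 in LPS (52.5 and 133 CPM), again too few to tell the libraries apart. The neutrophil list had 1 of 5, Csf3r, at the fill-in in Sham and at 25 reads, 476 CPM, in LPS, with S100a8, S100a9, Mpo and Cxcr2 not listed. The matrix and endothelial sums were thus lower, and Rtkn2 and Csf3r higher, in the LPS library, alongside the lower Gigyf2 level. Their part in it was not tested.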

How the data were processed

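Values of 1 Sham and 1 LPS lung library were used. The authors deposited CPM values under the heading TPM. Each column sums to 1000000, and 100% of the values above the fill-in are whole multiples of 1 read (within 0.01 reads). The submitters' processing notes name CASAVA 1.8, BWA and the genome build rn6, with no role given. The circRNA caller is not given in the sources used here. The paper's methods describe another library kit, without RNase R.

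Host names were split on commas. A name counted as a protein-coding host if it matched a GRCr8 RefSeq gene on the same chromosome and its rows lay within 3 Mb (2420 of 2562 names), and Gigyf2 (gene ID 100362458) did. This host filter was set after seeing the data, in which small RNA family names outranked Gigyf2, and it shapes the rank and every comparison with other hosts. log2 differences used 0.5 reads as pseudocount and 2-fold as threshold, and no test was made, since there is 1 library per group. Named were all Gigyf2 junctions, the next hosts by level, the 5 nearest hosts and circRNAs, the hosts with at least 8 junctions (those with the highest shares, of which 1 is not reported here), and a list of 54 partner and pathway genes. Members and lists were chosen with earlier results of these data known. Alternatives changed the pseudocount, scale, fill-in, threshold, read minimum and host rows. No genome of the build was used, so junction sequences were not printed. Steps were tested on simulated data. Analyses were run in Python 3.11.15 with pandas 2.3.3, numpy 2.4.6, matplotlib 3.10.9 and scipy 1.17.1.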

Additional observations from a re-analysis of the deposited data

How the results depend on the processing

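No paired analysis was possible because there was 1 library per group, and leaving out a replicate was impossible for the same reason. With the median of ratios over circRNAs listed in both libraries, the log2 differences were -0.71 for the leading junction, -0.66 for the Gigyf2 sum and 0.24, a change of sign, for the other junctions together, and 3 junctions were at least 2-fold higher and 2 lower, against 2 and 4. On the scale set by circRNAs of 50 or more reads these differences were -1.62, -1.57 and -0.67. Both follow from the shift each scale makes, and the first scale leaves the reads uncorrected for depth. With rows naming Gigyf2 alone, the leading junction held 97.1% of the reads in Sham and 95.7% in LPS, and the other junctions together were at -0.59, by fewer rows. At 4-fold, 1 junction was higher and 2 were lower, and 1 was higher with at least 10 reads or with the fill-in as 1 read. Without its leading junction Gigyf2 ranked 46 in Sham and 70 in LPS among protein-coding hosts. Over all names in the host column, small RNA families included, it ranked 9 and 14, and the protein-coding filter itself was chosen after seeing the data. The remaining 26 values, the 3 and the -0.59 among them, kept direction and stayed within the counting interval or 1.5 times the count. Depth limits the lesser junctions, of which 5 of 7 had at least 10 reads over both libraries.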

Other observations

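The 2 Gigyf2 rows with further names list 7 small RNA families beside the gene. All 7 families stand together in 189 rows on 9 chromosomes. They stand with exactly 1 other name in 7 rows of the table, 6 of them among the 202 rows of chromosome 9, and 1 of these is a Dis3l2 junction (93864369 to 93873401) with 3 Sham reads. The names that outrank Gigyf2 in the host column, 8 in Sham and 13 in LPS, each stand in at least 145 rows, and none matched a protein-coding gene on a single chromosome.

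Within 1 Mb of the Gigyf2 junctions on either side, the table lists that Dis3l2 junction and a Dgkd junction (95011732 to 95013269) with 2 Sham and 10 LPS reads. In the GRCr8 gene table, the 8 protein-coding genes before Gigyf2, Eif4e2 among them, and the 7 after it have no listed circRNA, and Dgkd is the next. The file's build differs from GRCr8, so this order is given by gene name only.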
